A study of Mus musculus with 12 samples.

Results

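Genes for fatty acid elongases and desaturases were examined in mouse liver across 2 diets, each fed with and without an extract of maple syrup. The list held 9 genes: the elongases Elovl1, Elovl2, Elovl5 and Elovl6, the desaturases Fads1, Fads2, Scd1 and Scd2, and Fads3, a desaturase relative. A gene was taken where the platform annotation gave its symbol alone to a probe set, and where several qualified the brightest on average would be used. This found 8 of the 9 genes among 22180 named genes, each with 1 probe set. The probe set annotated to Scd2 was also annotated to Mir5114, a microRNA gene, so that its values, between 5.93 and 7.12 on the log2 scale, were assigned to neither gene and not tested.

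RNA came from the liver of male C57BL6 mice that ate their diet freely for 12 weeks, between 6 and 18 weeks of age. The groups of 3 arrays each were high-fat MSX (45% of energy from fat, with 0.5% w/w MSX, the phenol-enriched maple syrup extract), high-fat control (the same fat content without extract), low-fat MSX (10% of energy from fat, with 0.5% w/w MSX) and low-fat control. The arrays of a group were labelled as biological replicates, and the labels do not say whether a sample was 1 mouse or a pool. Body weight, liver fat and fatty acid composition were not analysed here.

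Elongases of the Elovl family run the first, rate-setting step of a cycle in the endoplasmic reticulum that lengthens fatty acyl chains. Desaturases in the same membrane insert unsaturated bonds, drawing electrons from cytochrome b5 and its reductase. In liver, Elovl6 and Scd1 act on the saturated products of fatty acid synthase and yield oleate, whereas Fads2, Elovl5, Fads1 and Elovl2 act in turn on dietary essential fatty acids and yield long polyunsaturated chains. The transcription factor SREBP-1c, encoded by Srebf1, is known to drive many of these genes in response to insulin, and polyunsaturated fatty acids are known to restrain it.

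Values are log2 probe set summaries as deposited, and differences are between group means on that scale, where 1 unit is a 2-fold ratio. Array medians lay between 4.68 and 4.75 over all probe sets, and correlations between arrays lay between 0.973 and 0.984. The hepatocyte markers (Alb, Apoa1, Ttr, Serpina1a, Fgb and Tat) averaged between 12.4 and 12.6 in every array. High-fat control replicate 1 had high values for markers of several other cell types. Relative to the mean of the 12 arrays, its median deviation was 0.74 for the cholangiocyte, 0.50 for the stellate cell, 0.55 for the macrophage and 0.34 for the lymphocyte markers. It was 0.13 for the endothelial and 0.01 for the adipocyte markers. The macrophage markers also deviated in the other arrays of that group, by 0.34 in replicate 2 and −0.64 in replicate 3. High-fat control replicate 1 held the highest value of its group for 8 of the 8 measured elongase and desaturase genes, a count not made over all genes. Differences printed for single genes of these 8 that involve the high-fat control group are therefore also given without it. List medians, counts and the differences of other genes rest on all arrays. In a bulk tissue array fewer cells of a type and less RNA per cell cannot be told apart.

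**Figure D1:**
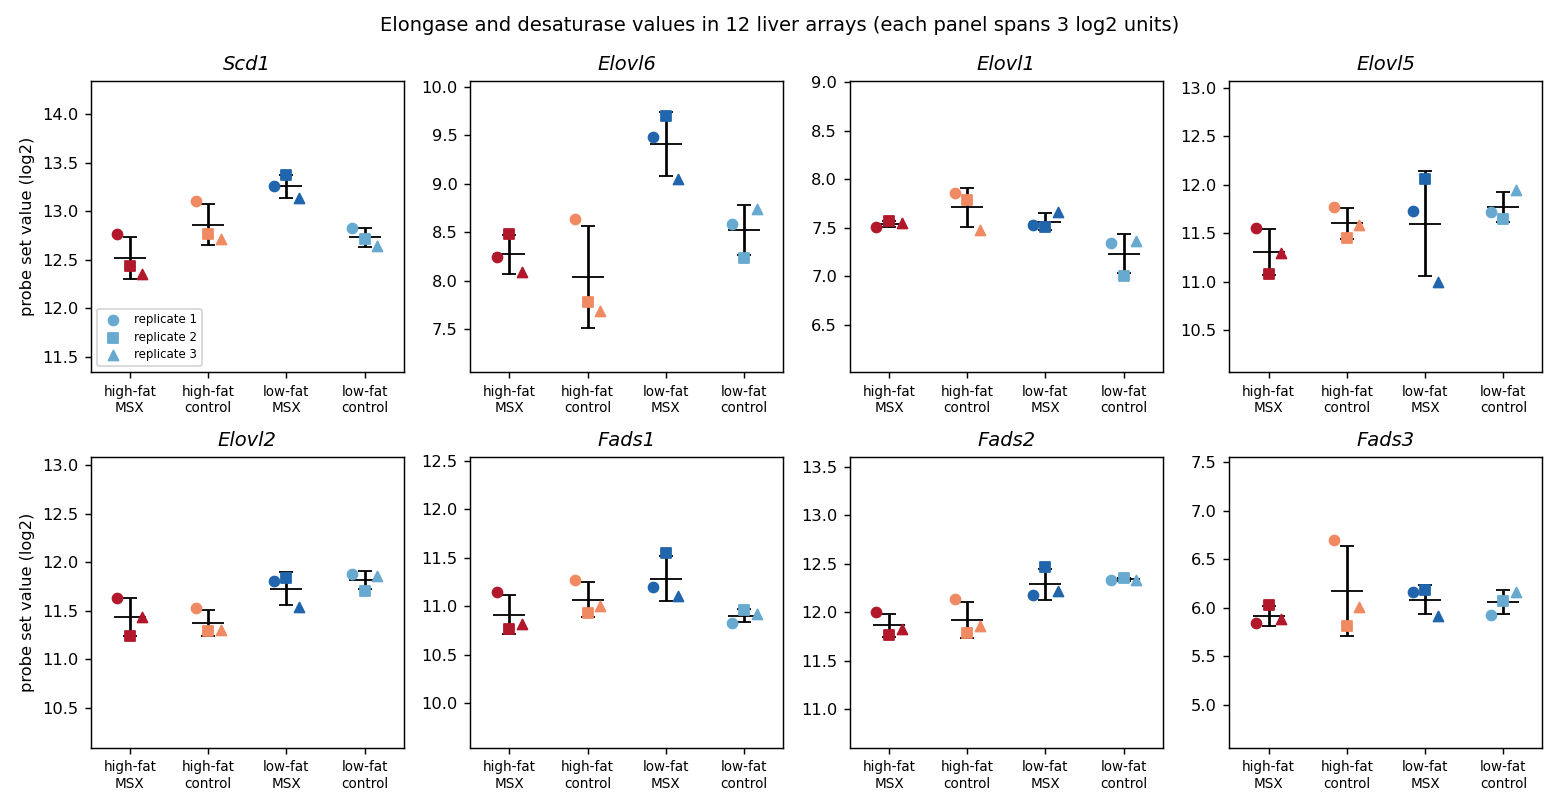
Probe set values (log2) of the 8 measured genes, with a symbol for each array, a horizontal bar for the group mean and an error bar for 1 SD (n = 3). Scd1 and Elovl6 lie highest in the low-fat MSX group. Fads2 lies lower in the high-fat groups than in the low-fat groups, and Elovl2 does so by group mean, with overlap between the MSX groups.

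On the low-fat diet, the livers of mice given MSX were set against those of mice without it. The pair of enzymes that work on newly made saturated fatty acids, Scd1 and Elovl6, had the lowest p-values among the 8 genes, and both were higher with extract. Fads1 and Elovl1 were also higher, by smaller amounts, and the differences of the remaining 4 genes ran from −0.17 to 0.03. None of these differences passed the threshold of an adjusted p under 0.05 over all 22180 genes (limma), a threshold that 0.158% of all genes passed.

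Scd1, the stearoyl-CoA desaturase that makes oleate and palmitoleate, had 13.26, 13.38 and 13.14 in low-fat MSX, against 12.83, 12.71 and 12.64 in low-fat control. The groups did not overlap. The difference was 0.53 (SE 0.14, 95% interval 0.22 to 0.84, limma adjusted p = 0.269), a 1.44-fold ratio.

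Elovl6, which lengthens palmitate to stearate and so supplies Scd1, had 9.48, 9.69 and 9.05 in low-fat MSX, against 8.59, 8.23 and 8.74 in low-fat control. Every low-fat MSX array lay above every low-fat control array. The difference of 0.89 (SE 0.24, 95% interval 0.37 to 1.41, limma adjusted p = 0.278), a 1.85-fold ratio, was the largest of the 8 genes in this comparison.

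The promoter of Elovl6 is printed because this gene had the largest difference of the 8 for the extract on the low-fat diet and for the diet with extract. It runs from 250 bases before to 50 bases after the start site (RefSeq, GRCm38.p6, chr3:129532136-129532435, plus strand). The motifs searched on both strands were CCAAT (bound by NF-Y), CACGTG (an E-box), TCACNCCAC (a sterol regulatory element) and GGGCGG (a GC box). Capitals would mark a match, and none of these letters occurred in this window.
Elovl6: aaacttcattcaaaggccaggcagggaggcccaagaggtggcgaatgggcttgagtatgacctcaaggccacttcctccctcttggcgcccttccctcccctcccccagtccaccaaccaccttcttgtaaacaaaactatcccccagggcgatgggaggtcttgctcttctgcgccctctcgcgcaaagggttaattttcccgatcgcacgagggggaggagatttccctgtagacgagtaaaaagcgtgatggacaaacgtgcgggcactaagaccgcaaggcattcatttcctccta
Among all 32851 promoters of this length, 37.4% held CCAAT, 7.15% held CACGTG, 1.24% held TCACNCCAC and 35.7% held GGGCGG.

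Fads1, the desaturase that acts late on the way to arachidonate, had 11.20, 11.55 and 11.11 in low-fat MSX, against 10.83, 10.96 and 10.92 in low-fat control. The groups did not overlap, and the difference was 0.38 (SE 0.15, 95% interval 0.06 to 0.70, limma adjusted p = 0.536). Elovl1, which lengthens saturated chains to very long ones used in sphingolipids, had 7.52, 7.50 and 7.66 in low-fat MSX, against 7.34, 7.00 and 7.36 in low-fat control. It too did not overlap, with a difference of 0.33 (SE 0.13, 95% interval 0.04 to 0.62, limma adjusted p = 0.564).

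In all, 4 of the 8 genes were higher without overlap and 0 were lower, where 7.13% of all genes were higher and 6.73% lower in that way. At an unadjusted p under 0.05 the same comparison held 4 higher and 0 lower, against 4.03% of all genes higher and 4.03% lower. Of the markers of other cell types 0 passed, while the stellate cell, endothelial and macrophage lists had medians above 0. The median was 0.11 for the adipocyte, 0.07 for the cholangiocyte and −0.01 for the lymphocyte markers. The stellate cell markers averaged between 7.61 and 7.86 in low-fat MSX arrays, against 7.35 to 7.60 in low-fat control arrays, with 6 of 6 above 0 and a median difference of 0.17. Among them Lrat, which makes retinyl esters, had a difference of 0.76 (SE 0.18, limma adjusted p = 0.196) without overlap. The endothelial markers averaged between 7.72 and 8.01 in low-fat MSX arrays, against 7.55 to 7.89 in low-fat control arrays (6 of 6 above 0, median 0.22). The macrophage markers averaged between 7.45 and 7.75 in low-fat MSX arrays, against 7.30 to 7.84 in low-fat control arrays (5 of 6 above 0, median 0.29). The macrophage marker of lowest p, Marco, went the other way without overlap (difference −0.68, SE 0.22, limma adjusted p = 0.434). The part of those cells in these values was not tested. The median difference of the 8 genes was 0.18, and that of all genes was 0.00 to the second decimal (−0.0014).

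The other enzymes of the route to polyunsaturated chains had smaller differences with intervals that included 0. Fads2, the desaturase that opens that route, had 12.17, 12.47 and 12.22 in low-fat MSX, against 12.33, 12.35 and 12.33 in low-fat control, and the difference of −0.05 had a 95% interval of −0.32 to 0.22. Elovl2, which makes the longest polyunsaturated chains, differed by −0.09 (95% interval −0.38 to 0.20) and overlapped. Elovl5, which lengthens the products of Fads2, had 11.73, 12.06 and 11.00 in low-fat MSX, against 11.72, 11.64 and 11.95 in low-fat control. Its difference of −0.17 rested on replicate 3 of the low-fat MSX group and was 0.13 without that array. Fads3, which acts on sphingoid bases, differed by 0.03 (95% interval −0.38 to 0.43).

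Genes around the synthesis of palmitate, the substrate of Elovl6, were also examined. The list, called from acetyl-CoA to palmitate for short, held Acly, Acss2, Acaca, Acacb, Fasn, Me1, Slc25a1, Thrsp, Mid1ip1 and Pklr. Only some of them, such as Acaca and Fasn, are enzymes of that route itself. Of these 10 genes, 2 rose, Fasn and Thrsp, and 0 fell (0.0631% of all genes rose and 0.0947% fell). The median difference was 0.84. Acaca, acetyl-CoA carboxylase, averaged 8.34 in low-fat MSX and 7.46 in low-fat control, with a difference of 0.87 (SE 0.16) that missed the threshold (limma adjusted p = 0.0521). Srebf1 had 8.90, 8.93 and 8.64 in low-fat MSX, against 8.16, 7.85 and 7.92 in low-fat control, without overlap. Its difference was 0.85 (SE 0.20, limma adjusted p = 0.185). Of 14 SREBP-2 target genes of cholesterol synthesis 4 rose and 0 fell, with a median of 0.66 and 11 higher at an unadjusted p under 0.05. Those that rose were Cyp51, Sqle, Fdps and Nsdhl, of which Nsdhl was named after its value was seen.

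Among 15 measured regulators of the family, 1 rose and 0 fell. The gene that rose was Insig1, which retains SREBP in the endoplasmic reticulum, with a difference of 1.38 (SE 0.20, limma adjusted p = 0.0173). Insig2, its paralogue, averaged 8.55 in low-fat MSX and 9.31 in low-fat control, a difference of −0.76 (SE 0.19, limma adjusted p = 0.238).

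The partners of these enzymes were examined too. Of 9 genes of the elongation cycle and acyl-CoA activation, 0 passed the threshold in either direction, with a median of 0.07. Hacd2, a dehydratase of the cycle, had the lowest p, with a difference of 0.28 (SE 0.12, limma adjusted p = 0.564). Of 6 genes that supply electrons to desaturases, 0 passed, with a median of 0.08. Cyb5b, the cytochrome b5 of the mitochondrial outer membrane, averaged 9.85 in low-fat MSX and 9.15 in low-fat control (difference 0.71, SE 0.15, limma adjusted p = 0.11). Cyb5a, the microsomal form that serves desaturases, averaged 10.37 in low-fat MSX and 10.61 in low-fat control (difference −0.24, SE 0.11, limma adjusted p = 0.607).

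The other elongases and desaturases (Elovl3, Elovl4, Elovl7, Scd3, Scd4, Fads6, Degs1 and Degs2) had a median difference of −0.04, and by limma 0 of 8 passed the threshold and 0 had an unadjusted p under 0.05. Of 7 genes of peroxisomal chain shortening, which completes docosahexaenoate, 0 rose and 1 fell, with a median of −0.32. That gene was Ehhadh, the peroxisomal bifunctional enzyme, with a difference of −0.91 (SE 0.15, limma adjusted p = 0.0338). Of 10 genes that use unsaturated acyl chains for phospholipids, triglycerides and cholesterol esters, 0 passed the threshold, with a median of 0.11.

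**Figure D2:**
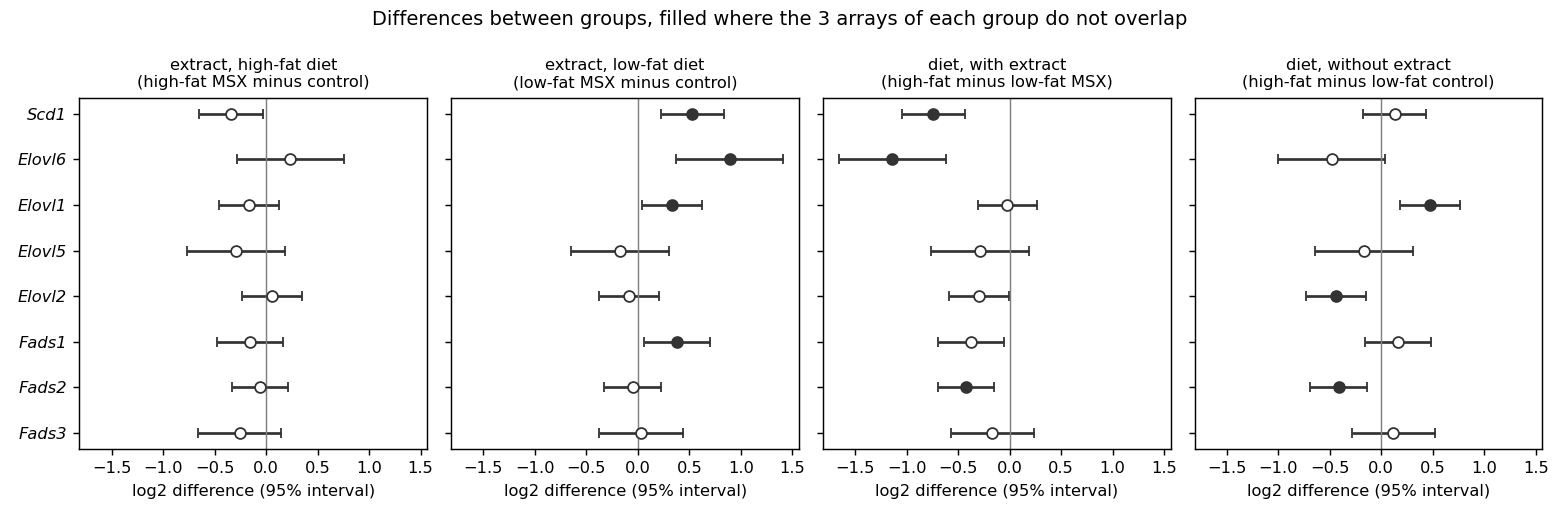
Log2 differences of the 8 genes in 4 comparisons, with 95% intervals from limma. Filled symbols mark genes whose groups did not overlap, which are 0 genes for the extract on the high-fat diet, 4 for the extract on the low-fat diet, 3 for the diet with extract and 3 for the diet without extract.

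On the high-fat diet, high-fat MSX was likewise set against high-fat control. No gene of the 8 lay apart between these groups, where 12.2% of all genes did. Scd1 had 12.76, 12.44 and 12.36 in high-fat MSX, against 13.10, 12.77 and 12.71 in high-fat control. The highest high-fat MSX array lay within the high-fat control range, and the other 2 lay below it. The difference was −0.34 (SE 0.14, 95% interval −0.65 to −0.04, limma adjusted p = 0.676), and −0.22 without high-fat control replicate 1.

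Elovl6 had 8.24, 8.48 and 8.09 in high-fat MSX, against 8.64, 7.78 and 7.69 in high-fat control. The difference of 0.23 (95% interval −0.29 to 0.75) was opposite in sign to that of Scd1, and it was 0.54 (limma adjusted p = 0.83) without high-fat control replicate 1 and its value of 8.64. Fads3 had 5.84, 6.03 and 5.88 in high-fat MSX, against 6.70, 5.81 and 6.01 in high-fat control. Its difference was −0.26 with all arrays and 0.01 without high-fat control replicate 1, the array with high markers of several other cell types. The stellate cell markers averaged between 7.23 and 7.65 in high-fat MSX arrays, against 7.50 to 8.43 in high-fat control arrays (median difference −0.28). Of these markers 0 of 6 passed the threshold, and 3 were lower at an unadjusted p under 0.05. The cholangiocyte markers averaged between 4.61 and 4.72 in high-fat MSX arrays, against 4.69 to 5.29 in high-fat control arrays (median difference −0.26). Here 0 of 5 passed, and 2 were lower at an unadjusted p under 0.05, against 3.51% of all genes. The part of those cells in these values was not tested.

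The remaining 5 genes differed by −0.29 to 0.06, and each interval included 0. For Elovl5 the difference was −0.29 (95% interval −0.77 to 0.19), and for Elovl1 it was −0.17 (95% interval −0.46 to 0.12). Fads1 differed by −0.15 (95% interval −0.48 to 0.17) and Fads2 by −0.06 (95% interval −0.33 to 0.21). For Elovl2 it was 0.06 (95% interval −0.23 to 0.35). Without high-fat control replicate 1 the difference was −0.21 for Elovl5, −0.09 for Elovl1, −0.053 for Fads1, 0.044 for Fads2 and 0.14 for Elovl2, so that the sign turned for Fads2. By limma 0 of 8 genes passed the threshold that 0.0361% of all genes passed, and at an unadjusted p under 0.05 there were 0 higher and 1 lower, Scd1, against 3.48% of all genes higher and 3.51% lower. The median over the 8 genes was −0.16, against 0.01 over all genes.

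On this diet 0 of the 10 genes from acetyl-CoA to palmitate passed, and their median was 0.10. Acacb, the acetyl-CoA carboxylase of the mitochondrial surface, averaged 6.13 in high-fat MSX and 6.64 in high-fat control, without overlap (difference −0.51, SE 0.21, limma adjusted p = 0.669). Srebf1 had 8.31, 8.12 and 8.30 in high-fat MSX, against 8.40, 7.55 and 7.51 in high-fat control, where replicate 1 was the highest. With all arrays its difference was 0.42 (SE 0.20, limma adjusted p = 0.727). Elovl3, an elongase of saturated and monounsaturated chains, averaged 10.94 in high-fat MSX and 10.40 in high-fat control, without overlap (difference 0.54, SE 0.24, limma adjusted p = 0.707).

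Whether the extract acted differently on the diets was tested as the difference of both extract effects, high-fat minus low-fat. Scd1 had a value of −0.87 (SE 0.20, 95% interval −1.31 to −0.44, limma adjusted p = 0.665), with rank 26 by p among 22180 genes. With all arrays the value for Fads1 was −0.54 (95% interval −0.99 to −0.08), for Elovl1 −0.50 (95% interval −0.91 to −0.09) and for Elovl6 −0.66 (95% interval −1.39 to 0.08). Fads2 had a value of −0.01 (95% interval −0.40 to 0.38). Without high-fat control replicate 1 the value was −0.75 for Scd1, −0.43 for Fads1, −0.42 for Elovl1, −0.35 for Elovl6 and 0.09 for Fads2.

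Of the 8 genes 7 had a value below 0, as had 10858 of 22180 genes. The median of the 8 was −0.39 against 0.01 over all genes. By limma 0 of 8 genes and 0 of 22180 genes passed the threshold (0.00% of all genes), and at an unadjusted p under 0.05 there were 0 higher and 3 lower of the 8, against 2.67% of all genes higher (592) and 2.43% lower (538). Fasn, which makes palmitate, stood at −1.53 (SE 0.29, limma adjusted p = 0.664) and the 10 genes of its list had a median of −0.95. In high-fat control Fasn had 9.19, 8.42 and 8.42, the highest in replicate 1. Of the stellate cell markers 6 of 6 were below 0 (median −0.59, 3 at an unadjusted p under 0.05) and of the cholangiocyte markers 5 of 5 (median −0.45), with 0 past the threshold. The part of those cells in these values was not tested.

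In mice that received extract, the diets were compared as high-fat MSX against low-fat MSX. This shares the low-fat MSX arrays with the comparison of the extract on the low-fat diet, and the high-fat MSX arrays with that of the extract on the high-fat diet, so that the values are not independent. All 8 genes had differences below 0, with a median of −0.33 against 0.00 over all genes (0.00145). The stellate cell markers also had 6 of 6 below 0, with a median of −0.30 and 0 past the threshold, and averaged between 7.23 and 7.65 in high-fat MSX arrays, against 7.61 to 7.86 in low-fat MSX arrays. Their part in these values was not tested. Scd1 and Elovl6 were again the pair with the lowest p-values.

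Elovl6 had 8.24, 8.48 and 8.09 in high-fat MSX, against 9.48, 9.69 and 9.05 in low-fat MSX. The groups did not overlap. The difference was −1.14 (SE 0.24, 95% interval −1.66 to −0.62, limma adjusted p = 0.713), which is 2.20-fold lower in high-fat MSX. Scd1 had 12.76, 12.44 and 12.36 in high-fat MSX, against 13.26, 13.38 and 13.14 in low-fat MSX. Its groups did not overlap either, and the difference was −0.74 (SE 0.14, 95% interval −1.05 to −0.43, limma adjusted p = 0.531), which is 1.67-fold lower in high-fat MSX.

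By p, Scd1 had rank 6 and Elovl6 rank 12 among 22180 genes, of which 0 passed the threshold (0.00%, limma). Fads2 was the remaining gene without overlap, at 12.00, 11.76 and 11.83 in high-fat MSX, against 12.17, 12.47 and 12.22 in low-fat MSX. In all, 3 of the 8 genes were lower without overlap and 0 were higher, against 4.76% of all genes lower and 4.68% higher in that way. At an unadjusted p under 0.05 there were 0 higher and 5 lower of the 8, against 2.39% of all genes higher (529) and 2.18% lower (483).

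The list from acetyl-CoA to palmitate had 9 of 10 differences below 0 in this comparison, with a median of −0.71. Acacb averaged 6.13 in high-fat MSX and 7.31 in low-fat MSX (difference −1.18, SE 0.21, limma adjusted p = 0.466). Acaca averaged 7.55 in high-fat MSX and 8.34 in low-fat MSX (difference −0.78, SE 0.16, limma adjusted p = 0.576). Srebf1 averaged 8.24 in high-fat MSX and 8.82 in low-fat MSX (difference −0.58, SE 0.20, limma adjusted p = 0.999). Among 14 SREBP-2 target genes of cholesterol synthesis the median was 0.19, and 0 passed.

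In mice without extract, the diets were compared as high-fat control against low-fat control. The low-fat control arrays also served the comparison of the extract on the low-fat diet, and the high-fat control arrays that on the high-fat diet. Values of these comparisons are therefore not independent. Elovl2 and Fads2, enzymes of the route to polyunsaturated chains, were lower on the high-fat diet, and Elovl1 was higher, each without overlap. Neither Scd1 nor Elovl6 lay apart between these groups.

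Elovl2 had 11.53, 11.29 and 11.30 in high-fat control, against 11.88, 11.71 and 11.86 in low-fat control. The difference was −0.44 (SE 0.13, 95% interval −0.73 to −0.15, limma adjusted p = 0.537). Fads2 had 12.13, 11.78 and 11.85 in high-fat control, against 12.33, 12.35 and 12.33 in low-fat control (SD 0.01). Its difference was −0.41 (SE 0.13, 95% interval −0.69 to −0.14, limma adjusted p = 0.537). Without high-fat control replicate 1 both differences were −0.52.

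The promoters of Elovl2 and Fads2 are printed because these genes were lower together on the high-fat diet, with GGGCGG matches in capitals. They were read from RefSeq (GRCm38.p6) at chr13:41220354-41220653 for Elovl2 and chr19:10101454-10101753 for Fads2, both on the minus strand and written in the direction of the gene. The window of Elovl2 held 5 matches of GGGCGG and that of Fads2 held 1, and neither held any of the other motifs on either strand. A second listed start site of Elovl2 had 0 matches of any of the 4 motifs.
Elovl2: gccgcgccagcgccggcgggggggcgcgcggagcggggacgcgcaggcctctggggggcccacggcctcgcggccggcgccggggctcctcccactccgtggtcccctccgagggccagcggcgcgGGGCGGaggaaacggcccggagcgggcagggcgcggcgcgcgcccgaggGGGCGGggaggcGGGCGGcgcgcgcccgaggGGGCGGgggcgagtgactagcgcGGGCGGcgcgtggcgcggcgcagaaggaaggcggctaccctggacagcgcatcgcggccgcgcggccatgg
Fads2: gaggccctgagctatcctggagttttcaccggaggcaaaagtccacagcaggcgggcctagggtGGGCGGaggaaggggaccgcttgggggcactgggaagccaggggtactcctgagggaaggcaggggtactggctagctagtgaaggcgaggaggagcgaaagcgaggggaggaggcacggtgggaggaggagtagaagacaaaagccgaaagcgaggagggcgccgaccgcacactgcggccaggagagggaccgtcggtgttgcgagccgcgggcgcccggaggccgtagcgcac
Of the 9 listed genes, 6 were matched in the promoter table by symbol, and Fads1, Scd1 and Scd2 were not. Among these 6 a CACGTG match occurred in Elovl5 and in no other, and 0 held the sterol regulatory element. GGGCGG, held by 35.7% of all promoters, also occurred in Elovl1, which was higher on the high-fat diet, and in Fads3. CCAAT, held by 37.4% of all promoters, occurred in Elovl1, Elovl5 and Fads3.

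Elovl1 had 7.86, 7.79 and 7.48 in high-fat control, against 7.34, 7.00 and 7.36 in low-fat control. The difference was 0.48 (SE 0.13, 95% interval 0.19 to 0.76, limma adjusted p = 0.48), and 0.40 without high-fat control replicate 1. In all, 1 of the 8 genes was higher and 2 were lower without overlap, against 5.29% of all genes higher and 6.10% lower in that way. The threshold was passed by 0 of the 8 genes and by 0.0180% of all genes, and at an unadjusted p under 0.05 there were 1 higher and 2 lower of the 8, against 3.44% of all genes higher and 3.34% lower. Of the markers of other cell types 0 passed. The cholangiocyte markers averaged between 4.69 and 5.29 in high-fat control arrays, against 4.60 to 4.64 in low-fat control arrays (5 of 5 above 0, median 0.35). The stellate cell markers averaged between 7.50 and 8.43 in high-fat control arrays, against 7.35 to 7.60 in low-fat control arrays (5 of 6 above 0, median 0.30, 3 at an unadjusted p under 0.05). The endothelial markers averaged between 7.70 and 8.04 in high-fat control arrays, against 7.55 to 7.89 in low-fat control arrays (5 of 6 above 0, median 0.19, 2 at an unadjusted p under 0.05). The lymphocyte markers had 4 of 5 above 0 (median 0.26, 1 at an unadjusted p under 0.05). The macrophage markers had 5 of 6 above 0 (median 0.19, 0 at an unadjusted p under 0.05). The adipocyte markers had 4 of 5 above 0 (median 0.06, 1 at an unadjusted p under 0.05). That marker was Fabp4, higher without overlap (difference 0.63, SE 0.18, limma adjusted p = 0.491). The part of those cells in these values was not tested.

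Elovl6 had 8.64, 7.78 and 7.69 in high-fat control, against 8.59, 8.23 and 8.74 in low-fat control. The difference was −0.48 (SE 0.24, with an interval that includes 0), and −0.78 (limma adjusted p = 0.539) without high-fat control replicate 1. Scd1 had 13.10, 12.77 and 12.71 in high-fat control, against 12.83, 12.71 and 12.64 in low-fat control, a difference of 0.13 (95% interval −0.17 to 0.44) that was 0.01 without that array. Fads1 and Elovl5 overlapped, with differences of 0.16 (95% interval −0.16 to 0.48) and −0.17 (95% interval −0.65 to 0.31). Without high-fat control replicate 1 these were 0.06 for Fads1 and −0.25 for Elovl5. Fads3 had 0.12 with all arrays and −0.14 without high-fat control replicate 1.

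Of the related lists, that of cholesterol synthesis was the one with genes past the threshold in this comparison. Of 14 SREBP-2 target genes of cholesterol synthesis, 14 had differences above 0 with a median of 0.49, and 2 rose, Cyp51 and Sqle (0.0135% of all genes rose). Of the 10 genes from acetyl-CoA to palmitate 0 passed, and their median was 0.25. The elongases and desaturases had a median of −0.03, with 4 above and 4 below 0. Srebf2, the regulator of the cholesterol genes, averaged 8.10 in high-fat control and 7.62 in low-fat control (difference 0.48, SE 0.14, limma adjusted p = 0.499).

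**Figure D3:**
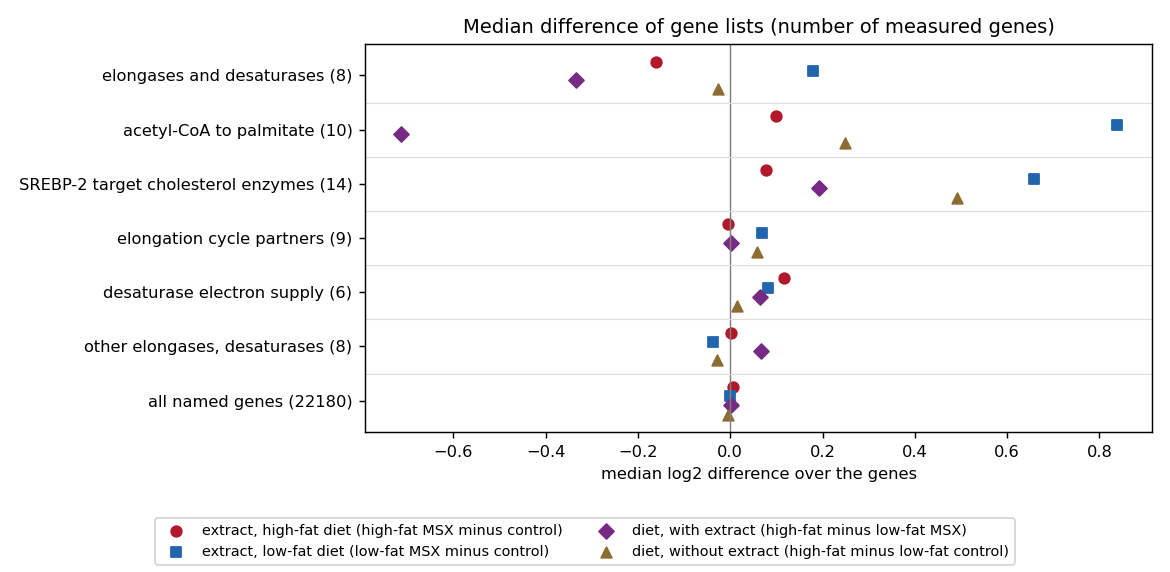
Median log2 difference over the genes of each list in 4 comparisons, with the number of measured genes in brackets. For the extract on the low-fat diet the medians are 0.18 for the elongases and desaturases, 0.84 for the genes from acetyl-CoA to palmitate and 0.66 for the cholesterol genes, and for the diet with extract they are −0.33, −0.71 and 0.19.

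Averages over both extract states gave the diet effect with 6 arrays against 6. Fads2 had between 11.76 and 12.13 with a median of 11.84 in the high-fat arrays, against 12.17 to 12.47 with a median of 12.33 in the low-fat arrays. All 6 high-fat arrays lay below all 6 low-fat arrays, a pattern that 0.171% of all genes showed in this direction and 1 of the 8 genes. The average difference was −0.42 (SE 0.09, limma adjusted p = 0.317). By the exact permutation test of arrays within each extract state, two-sided, p was 0.005, the smallest that its 400 arrangements can give.

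For Elovl6 the average diet difference was −0.81 (SE 0.17, limma adjusted p = 0.307, exact permutation p = 0.015), and for Elovl2 it was −0.37 (SE 0.09, limma adjusted p = 0.5, exact permutation p = 0.01). For Scd1 it was −0.30 (SE 0.10, limma adjusted p = 0.681, exact permutation p = 0.115). The average extract difference was 0.56 for Elovl6 (SE 0.17, limma adjusted p = 0.264, exact permutation p = 0.04) and 0.09 for Scd1 (SE 0.10, limma adjusted p = 0.823, exact permutation p = 0.59). The exact p-values are unadjusted and come from 16 such tests, 2 for each gene. Without high-fat control replicate 1 the average diet difference was −0.47 for Fads2, −0.96 for Elovl6, −0.41 for Elovl2 and −0.36 for Scd1, and the average extract difference was 0.71 for Elovl6 and 0.15 for Scd1.

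For the average diet effect 0 of the 8 genes and 0.0225% of all genes passed the limma threshold, with 1 higher and 4 lower of the 8 at an unadjusted p under 0.05 (2.88% of all genes higher and 3.06% lower). For the average extract effect 0 of the 8 genes and 0.261% of all genes passed it, with 1 higher and 0 lower of the 8 at an unadjusted p under 0.05 (5.20% of all genes higher and 4.46% lower). Elovl1 averaged 0.23 higher on the high-fat diet (SE 0.09, limma adjusted p = 0.782, exact permutation p = 0.075). For Elovl5 the average diet difference was −0.23 and the average extract difference was −0.23 (exact permutation p = 0.215 and 0.225). Without high-fat control replicate 1 these were 0.19 for Elovl1, and −0.27 and −0.19 for Elovl5.

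In low-fat MSX and in high-fat control most of the 8 genes were highest in the same array. How many of all genes were highest in those arrays was not counted. Low-fat MSX replicate 2 held the highest value of its group for 7 of the 8 genes, Elovl1 being the exception, and replicate 3 held the lowest for 6. The genes from acetyl-CoA to palmitate showed deviations of 0.42, 0.97 and 0.27 in low-fat MSX replicates 1, 2 and 3 (median over the list, relative to the 12 arrays). In high-fat MSX, replicate 1 was highest for 5 genes and replicate 2 for 3, while replicate 2 was lowest for 4. In low-fat control the highest values were spread over the arrays, with 2, 2 and 4 genes in replicates 1, 2 and 3.

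**Figure D4:**
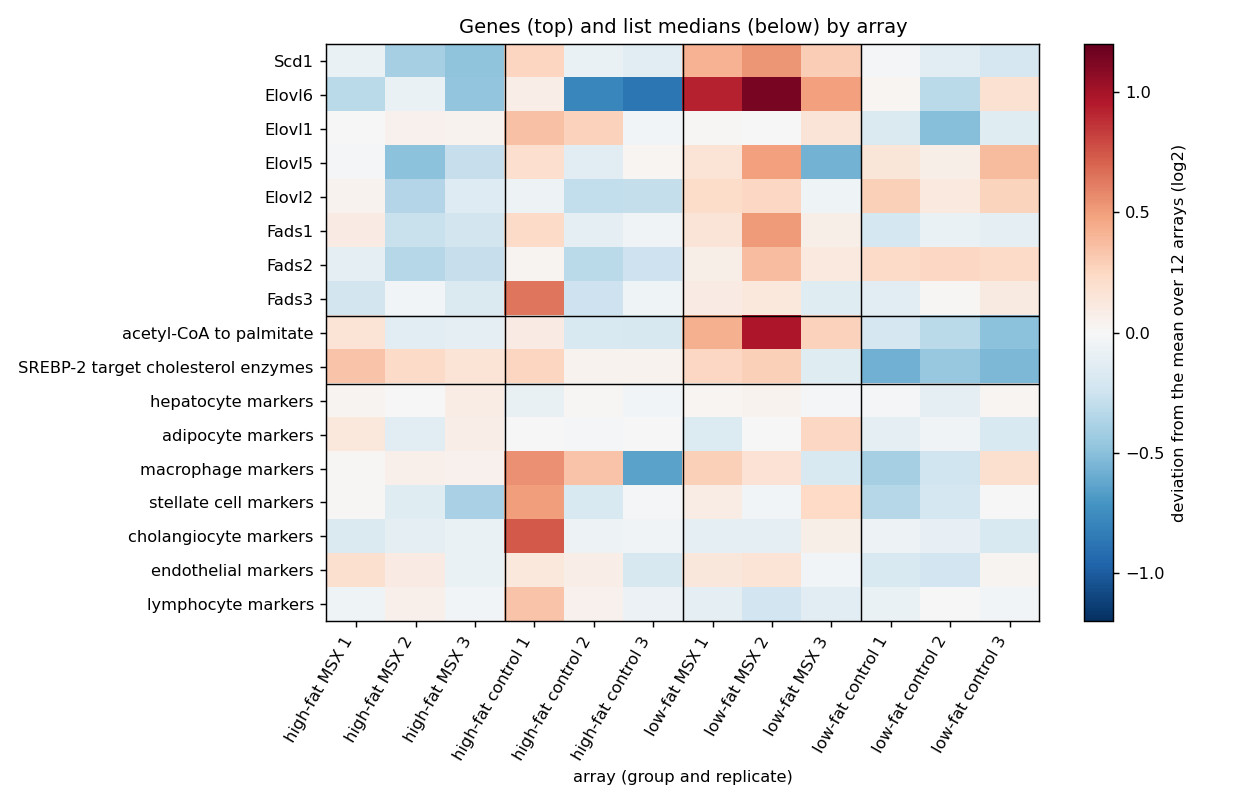
Deviation of each gene from its mean over the 12 arrays (log2), and below it the median deviation of gene lists, with arrays in columns. Elovl6 and the genes from acetyl-CoA to palmitate are high in the 3 low-fat MSX arrays, and high-fat control replicate 1 is high in 8 genes of the family relative to its group and in the cholangiocyte markers (0.74).

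The genes whose pattern over the 12 arrays was most like each member are given as a description, since arrays of a group share diet and extract. They were sought among 10508 named genes at or above the median level. For Elovl6 they were Daglb (Pearson r = 0.92), Acaca (r = 0.89) and Srebf1 (r = 0.88). For Scd1 they were Acacb (r = 0.89), Sh2b3 (r = 0.89) and Fbp1 (r = 0.88), and for Fads1 they were Me1 (r = 0.89), Pmvk (r = 0.88) and Mtfmt (r = 0.88). Elovl2 and Fads2 were among the 3 nearest of each other (r = 0.90). For Fads3 the nearest gene was Corin (r = 0.95), and for Elovl1 and Elovl5 they were Tbc1d14 (r = 0.90) and Aqp4 (r = 0.88).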

How the data were processed

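Liver RNA of 12 samples was hybridised to Affymetrix arrays, each sample to its own. The authors deposited log2 values per probe set, and the submitters' processing notes name the Transcriptome Analysis Console as their source. The console's version and its way of normalizing and summarizing probes were not found in the labels or headers. No further scaling was applied. Of 41345 probe sets the platform annotation gave 23521 a single symbol, and the brightest on average was kept per gene (22180 genes, no filter on dim genes). A match of 23328 probe sets by Entrez identifier to a GRCm38.p6 gene table changed 0 symbols.

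A model of 4 group means was fitted to all 12 arrays and all genes with limma 3.58.1 in R 4.3.3 (lmFit, eBayes, two-sided), with 7 comparisons. Benjamini-Hochberg adjustment ran over the 22180 genes, with calls under 0.05. Intervals are 95% intervals of the moderated test. The number of arrays limits the precision. The procedure was tested on simulated data, and the outcome is not given here. Alternatives were other probe set rules, a filter on dim genes, other scalings, other settings of the fit and arrays left out in turn.

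The genes and lists were chosen with earlier results of these data known, and the lists were written from general knowledge. Named genes are the 8 measured members, up to 3 genes of lowest p per list and comparison, and the 3 nearest genes per member. Nsdhl, Hsd17b4 and the lists written out in full were named in addition. List genes on probe sets with several symbols were not used. Labels give arrays of different groups the same replicate numbers without saying what a number marks, and correlations of same-numbered deviations lay between −0.126 and 0.112, so that the numbers were not taken as pairs.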

Additional observations from a re-analysis of the deposited data

How the results depend on the processing

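Under 9 other settings of the processing and with each of the 12 arrays left out in turn, 0 of the 8 genes passed the threshold in any of the 7 comparisons. The lowest adjusted p was 0.0582, for Fads2 in the average diet effect with a trend and robust prior, and with an array left out it was 0.0651, for Elovl6 in the same effect without high-fat control replicate 1. Of 960 values of the genes under these alternatives, 933 kept their direction. The 27 that turned were of differences no larger than 0.26 in size that passed no threshold. For the average extract effect Elovl2 was at 0.0076 with arrays centred on a common median and at 0.019 with array weights, and for the difference of the extract effects Fads2 was at 0.032 with array weights. With an array left out, the diet effect without extract on Fads3 ran from −0.14 to 0.30. On the low-fat diet the effect of extract ran from −0.14 to 0.0087 for Elovl2, from −0.40 to 0.13 for Elovl5, from −0.14 to 0.0063 for Fads2 and from −0.037 to 0.12 for Fads3. That on the high-fat diet ran from −0.040 to 0.15 for Elovl2, from −0.13 to 0.044 for Fads2 and from −0.44 to 0.0055 for Fads3. The difference of these effects ran from −0.42 to 0.11 for Elovl5 and from −0.079 to 0.095 for Fads2. The average diet effect on Fads3 ran from −0.16 to 0.065, the average extract effect on Elovl2 from −0.063 to 0.034 and on Fads3 from −0.20 to 0.017, and the diet effect with extract on Elovl1 from −0.051 to 0.028. The cause was not tested.

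Over all genes, the number past the threshold for the extract on the low-fat diet was 35, between 10 and 77 under other settings and between 6 and 28 with an array left out. With the replicate number as a block it was 20, and 0 of the 8 genes passed. For the extract on the high-fat diet it was 8, between 2 and 28 under other settings, and for the diet without extract it was 4, between 1 and 11. For the average diet effect it was 5, between 1 and 11, and for the average extract effect 58, between 34 and 173. For the diet with extract and for the difference of the extract effects it was 0, and at most 1 with an array left out. Other scalings moved the median gene by at most 0.0258 on the log2 scale. With 3 arrays a group, an exact permutation within a single pair of groups cannot give a p below 0.1, and small differences in these genes could not be detected.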
